A study of Mus musculus with 7 samples.

Results

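The regions described here are stretches of open chromatin that were found in the E16 stomach of Sox2 knockout (KO) mouse embryos and in no other library of an embryonic gut series. Chromatin was mapped by ATAC-seq, in which a transposase cuts accessible DNA and sites with many cuts are called as peaks. The series holds 7 peak lists, 1 per group: intestine and stomach at E13, colon, forestomach, hindstomach and small intestine at E16, and the Sox2 KO stomach at E16. Peaks on the 19 autosomes and X that overlapped by at least 1 bp were merged into 326695 regions. Members were chosen by the presence of a KO peak and the absence of a peak in the 6 other lists; 29122 regions met this and are called KO-only. Their absence elsewhere is therefore given by the choice and is not a result. The members made up 8.91% of all regions and 28.0% of the 104039 regions with a KO peak.

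Per the labels, the 6 other libraries came from embryos that carried ShhCre and a YFP reporter at R26, which marks cells of the Shh-expressing gut epithelium and their descendants. The E13 cells were sorted from whole organs pooled over embryos, and E16 epithelium was freed with dispase (forestomach) or EDTA (hindstomach, small intestine and colon). For the KO library the sources used here name no Sox2 allele, Cre or reporter, stomach part, isolation or number of embryos. Tissue part, isolation and genotype therefore cannot be told apart, and each group is 1 library, so no difference had a replicate check and none was tested. Ranges in parentheses after a share are 95% Wilson intervals, which take in the error of counting alone. Since the lists hold positions without heights, read depth is unknown.

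SOX2 is a transcription factor of the SRY-box family that marks the foregut, and in the stomach it stands opposite CDX2, the homeodomain factor that sets intestinal identity. Transcription starts of mouse genes fall into 2 broad kinds. CpG islands, where the dinucleotide CG is dense and mostly unmethylated, cover the starts of housekeeping genes and of many developmental regulators, and the latter are often held silent by Polycomb complexes in tissues that do not use them. CpG-poor starts belong more often to genes of a single cell type.

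Within 1 kb of a gene start lay 5.88% of KO-only regions, close to the 6.26% of all regions of the series and above the 1.04% to 3.24% of the regions found only in one other library. Of the start windows they touched, 44.6% were CpG-rich, so 5 of the start sequences are shown first. They were taken from the genes whose start windows held the 10 widest KO-only regions, to set 4 CpG-dense starts beside a CpG-poor one. Each is the 250 bases before the start, 5′ to 3′ on the gene's strand, from RefSeq (GRCm38.p6), with each CG in capitals.
Wnt4: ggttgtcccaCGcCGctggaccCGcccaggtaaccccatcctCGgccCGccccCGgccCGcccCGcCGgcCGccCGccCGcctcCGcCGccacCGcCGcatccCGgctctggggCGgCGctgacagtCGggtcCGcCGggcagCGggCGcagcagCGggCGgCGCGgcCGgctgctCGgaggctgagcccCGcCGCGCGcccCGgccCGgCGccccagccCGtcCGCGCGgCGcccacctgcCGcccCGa
Podn: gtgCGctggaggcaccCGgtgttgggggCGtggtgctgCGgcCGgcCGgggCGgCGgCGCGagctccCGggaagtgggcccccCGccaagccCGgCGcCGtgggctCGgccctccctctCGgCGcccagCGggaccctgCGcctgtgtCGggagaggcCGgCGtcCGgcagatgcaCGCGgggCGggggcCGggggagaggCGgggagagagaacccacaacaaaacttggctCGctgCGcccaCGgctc
Fam78a: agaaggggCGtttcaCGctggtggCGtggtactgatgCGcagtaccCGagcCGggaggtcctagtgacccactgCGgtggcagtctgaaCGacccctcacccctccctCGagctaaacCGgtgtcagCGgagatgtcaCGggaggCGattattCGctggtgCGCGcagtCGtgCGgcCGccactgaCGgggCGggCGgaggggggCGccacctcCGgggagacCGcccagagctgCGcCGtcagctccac
Ace: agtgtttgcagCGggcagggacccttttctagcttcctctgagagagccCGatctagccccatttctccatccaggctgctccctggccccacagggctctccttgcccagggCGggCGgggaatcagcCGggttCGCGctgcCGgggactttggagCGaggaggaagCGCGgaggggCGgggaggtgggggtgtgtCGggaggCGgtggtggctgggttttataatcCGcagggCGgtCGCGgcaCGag
Ces1b: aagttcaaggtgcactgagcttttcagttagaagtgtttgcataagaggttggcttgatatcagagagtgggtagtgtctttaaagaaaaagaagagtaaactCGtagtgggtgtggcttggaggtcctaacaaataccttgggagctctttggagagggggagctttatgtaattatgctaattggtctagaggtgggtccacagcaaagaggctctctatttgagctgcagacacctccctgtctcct
The Wnt4 sequence (chr4:137277385-137277634, plus strand), upstream of a secreted Wnt ligand, holds 44 CpG, and 126 of its bases lie in the KO-only region chr4:137277034-137277510. The Podn sequence (chr4:108031955-108032204, minus strand) belongs to podocan, a proteoglycan of the extracellular matrix. It holds 32 CpG and lies wholly in the KO-only region chr4:108031767-108032267. For Fam78a (chr2:32083706-32083955, minus strand) there are 27 CpG and 89 bases in the region chr2:32083242-32083794. Ace encodes angiotensin-converting enzyme; its sequence (chr11:105967698-105967947, plus strand) has 19 CpG, with 127 bases in the region chr11:105967820-105968331. Ces1b, a carboxylesterase gene, has 1 CpG in its sequence (chr8:93079941-93080190, minus strand), of which 200 bases lie in the region chr8:93079990-93080501. The nearest peak of another library was 633 bp from the region at Wnt4, 380 bp at Podn, 4498 bp at Fam78a, 1388 bp at Ace and 5253 bp at Ces1b.

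Regions found only in KO were not the most numerous of their kind. Colon had 55287 regions of its own, E13 stomach 24754, E13 intestine 21446, E16 intestine 21094, hindstomach 16927 and forestomach 12000. As a share of each library's regions this was 41.5% in colon, 28.7% in E13 intestine, 28.0% (27.7 to 28.3) in KO, 26.9% in E13 stomach, 22.3% in E16 intestine, 15.6% in hindstomach and 14.1% in forestomach. By share KO stood below colon and E13 intestine, and by number below colon. That order changed when every list was cut to its widest peaks at equal length. KO then had 18207 regions of its own (23.0%), below E16 intestine (19504, 24.8%), E13 stomach (18907, 24.5%), colon and E13 intestine. With peaks less than 500 bp apart merged, its share of 22.4% was also below the 22.6% of E13 stomach. Lists thinned at random to equal length kept the place of KO. The other KO regions were spread over all degrees of sharing: 17733 were in 1 other list, 15574 in 2, 11264 in 3, 8497 in 4, 7276 in 5 and 14573 in all 6.

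**Figure D1:**
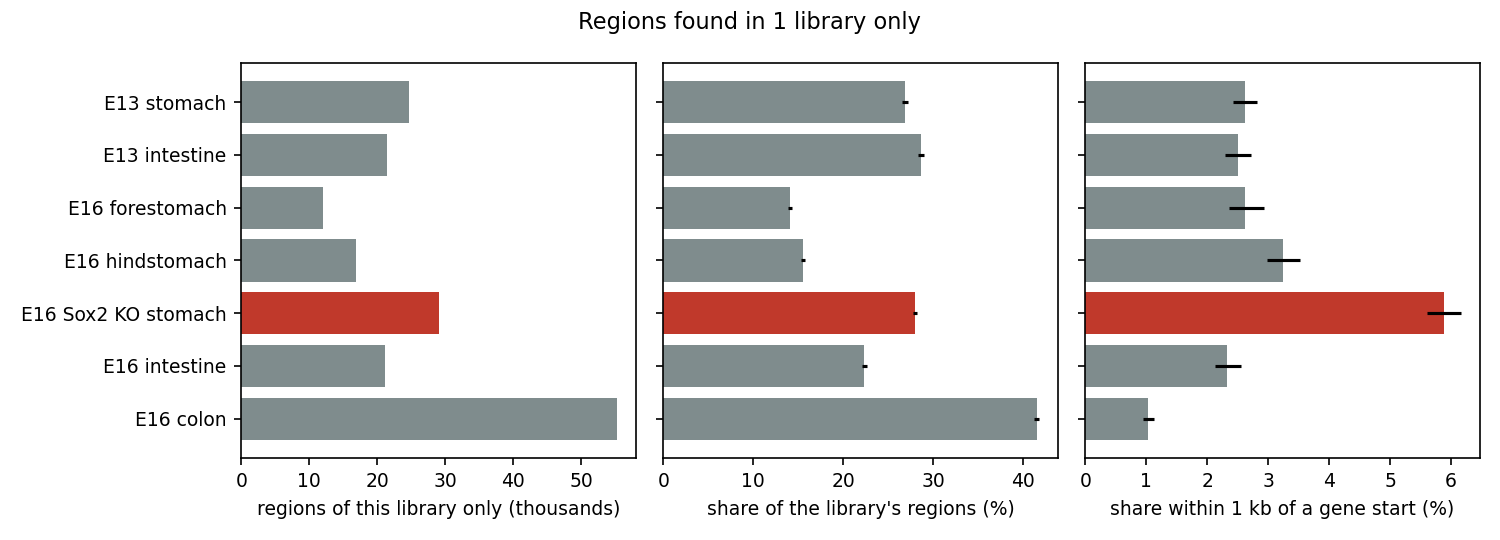
Number of regions found in 1 library only, their share of that library's regions, and the share of them whose midpoint lies within 1 kb of a gene start, for the 7 libraries. Bars of the KO library are red and black lines are 95% Wilson intervals; KO is below colon by number and below colon and E13 intestine by share of regions, and has the highest share near starts, at 5.88%.

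KO-only peaks were narrower than shared KO peaks, as were the library-only peaks of every other list. Their median width was 102 bp (quartiles 74 and 149), against 183 bp for KO peaks shared with another list, and 22.1% of them had the smallest width in the list, 71 bp, against 6.08% of shared ones. Among the 7 library-only sets the KO-only median was below that of forestomach (120 bp) and above the others (71 to 100 bp), and the share at a list's smallest width was 30.7% to 41.6% in the other sets. Median width rose with sharing, from 126 bp with 1 other list to 397 bp in all 7. The set also had a long tail: 915 KO-only peaks (3.14%) were over 300 bp wide, whereas the share over that width was 0.27% to 1.65% among the regions of each other single library. Shared KO peaks had the longest tail too, with a 99th percentile of 891 bp against 619 to 786 bp in the other lists. The part of this wider KO list in the tail of the KO-only set was not tested.

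Membership rests on a threshold of 1 bp, and some members lie close to it. Just inside, 254 KO-only regions ended 10 bp or less from a peak of another list, and just outside, 299 KO peaks shared only 1 to 10 bp with another list. A peak of another library lay within 100 bp of 1796 KO-only regions (6.17%), within 1 kb of 11088 (38.1%) and within 10 kb of 27589 (94.7%). The median gap was 1664.5 bp. Within 1 kb hindstomach was near most often, with a peak beside 18.7% of KO-only regions. E13 stomach followed at 18.3%, colon at 15.3%, forestomach at 14.5% and the E13 and E16 intestine at 12.96% and 12.94%. Within 10 kb colon was first at 73.8%, before hindstomach at 70.7% and E13 stomach at 65.5%. The lists differ in length, from 81179 peaks in E13 intestine to 135743 in colon, and the part of length in this order was not tested.

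The widest members sat mainly inside genes. The first was a 957 bp region in Zfhx3 (chr8:108703983-108704940), which encodes a zinc finger homeobox factor, 100 bp from the next peak of another library. A 723 bp region in Alk (chr17:72510710-72511433), the gene of a receptor tyrosine kinase of the nervous system, was 3617 bp from any other peak. Ncald, a neuronal calcium sensor, held one of 722 bp (chr15:37765753-37766475) with another peak 42 bp away. Sh3rf3 held one of 678 bp (chr10:58854964-58855642), Col4a2, a basement membrane collagen, one of 635 bp (chr8:11334378-11335013), and Lrfn1, a synaptic adhesion gene, one of 612 bp (chr7:28451642-28452254). Card10, a scaffold of NF-kB signalling, had its start covered by a region of 644 bp (chr15:78802597-78803241). One of the 10 widest lay over 100 kb from any protein-coding gene.

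Set against regions of a single library, KO-only regions were closer to genes, but at gene ends they stood at the share of all regions. They lay inside a protein-coding gene body in 54.5% of cases (53.9 to 55.1), against 40.4% in E13 intestine to 45.7% in hindstomach for the other library-only sets and 47.3% for all regions. At gene ends, meaning within 1 kb of the first or last base of a gene, the share was 8.29% (7.97 to 8.61), against 2.56% in colon to 5.34% in hindstomach and 8.32% for all regions. Over 100 kb from a gene the order was turned round, with 12.5% of KO-only regions and 18.4% to 26.9% of the others, and 18.98% of all regions. Shared KO regions were still closer to genes, with 60.5% inside a body and 22.8% at an end.

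Distance to a start was taken from the RefSeq start windows, which gave a start table for 28082 KO-only regions. The 1040 on chromosome 18 had none. On the other chromosomes some genes had no listed start either: 17274 of 21631 protein-coding genes had one. Regions at an unlisted start were measured to the next listed one, so the shares near starts can be too low in every set. The 612 bp region at an end of Lrfn1, for example, was 11011.5 bp from a listed start. The midpoint of 1651 KO-only regions (5.88%, 5.61 to 6.16) lay within 1 kb of a start. Among regions found only in one other library the share was 3.24% (2.98 to 3.52) in hindstomach, 2.63% in forestomach, 2.61% in E13 stomach, 2.50% in E13 intestine, 2.33% in E16 intestine and 1.04% in colon. The interval of KO-only regions does not overlap that of any of the 6 other sets, and it lies below the 6.26% (6.17 to 6.34) of all regions, which include those shared by several libraries. Within 250 bp of a start the share was 2.12% (1.957 to 2.294) for KO-only regions, 0.218% to 0.801% for the other sets and 3.63% for all regions. Among the KO regions themselves the share within 1 kb rose with sharing, from 7.84% with 1 other list to 50.5% in all 7. Of the 1651, 1050 lay downstream of the start and 601 upstream.

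**Figure D2:**
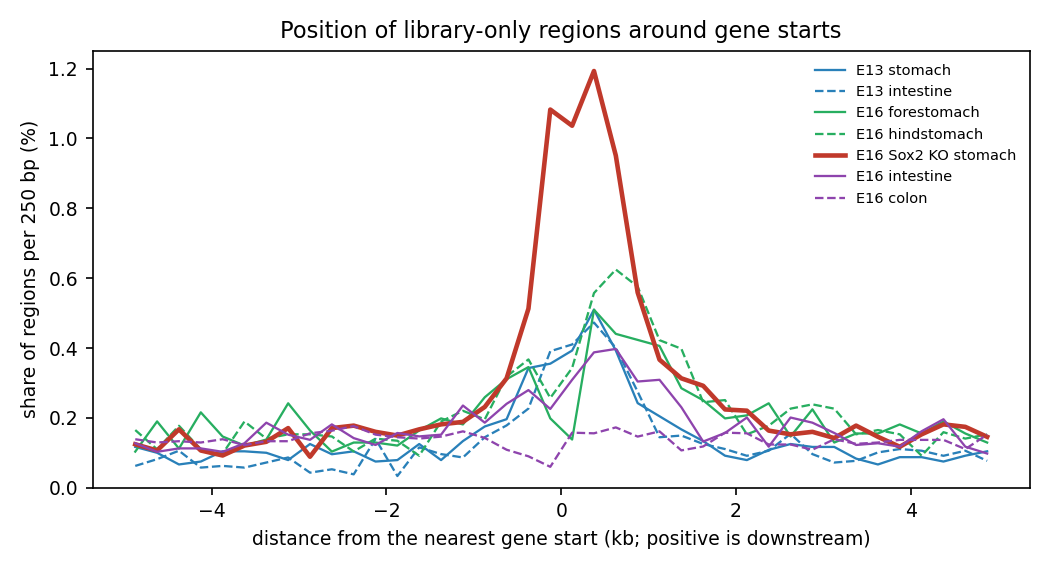
Share of the regions found in 1 library only whose midpoint falls in each 250 bp step around the nearest gene start, for the 7 libraries, against distance in kb with positive values downstream. The KO line (thick red) rises to 1.19% in the step from 250 to 500 bp downstream, while no other library exceeds it in the steps within 500 bp of the start and the lines run together beyond 2 kb.

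The position at starts held for narrow and wide members. It was 5.45% among KO-only regions of up to 100 bp, 5.91% from 100 to 150 bp, 6.17% from 150 to 200 bp, 6.74% from 200 to 300 bp and 8.66% (6.99 to 10.7) above 300 bp. The KO library as a whole also covered more starts than any other: 11186 of 17274 genes (64.8%) had a KO region in a start window, against 8171 (47.3%) in colon to 10601 (61.4%) in E13 stomach. KO was thus highest in both measures, and the part of the wider cover in the KO-only share near starts was not tested. The 2 measures did not keep the same order in the other libraries. Hindstomach covered 56.7% of genes and had 3.24% of its own regions within 1 kb of a start. For E13 stomach the values were 61.4% and 2.61%, and for E13 intestine 59.0% and 2.50%.

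A start window here is the 300 bp from 250 bp before to 50 bp after a RefSeq start. A KO-only region touched a start window of 511 of 17274 genes (2.96%). The regions of one other library did so at 149 genes in E13 stomach (0.863%), 119 in E13 intestine (0.689%), 91 in E16 intestine (0.527%), 78 in hindstomach (0.452%), 69 in colon (0.399%) and 38 in forestomach (0.220%). At 427 of the 511 genes the window held no region of another kind. When peaks less than 500 bp apart were merged, which moves KO peaks beside another library's start peak out of the set, 269 genes were left for KO and 18 to 65 for the other libraries.

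The starts with a KO-only region were richer in CpG than those of the other library-only sets. Their 547 windows held a median of 17 CpG, against 5 to 7 in the windows of the 6 other sets, 13 over all 21045 windows and 3 in windows with no region. Windows with G+C above 55% and an observed over expected CpG ratio above 0.65 are called CpG-rich. That was the case for 44.6% (40.5 to 48.8) of windows with a KO-only region, and for 11.7% in E16 intestine to 23.1% (12.6 to 38.3) in forestomach. All windows stood at 38.1%, those with a region in all 7 libraries at 67.0%, and those with no region at 2.54%. With every list thinned at random to the length of the shortest, the share was 44.0% (39.7 to 48.4) in KO, 37.7% in E13 stomach, 28.1% in E13 intestine and 10% to 27.3% in the other four, so the gap to E13 stomach was smaller. KO-only starts thus lay between the starts open everywhere and those open nowhere, and 303 of their 547 windows were not CpG-rich.

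**Figure D3:**
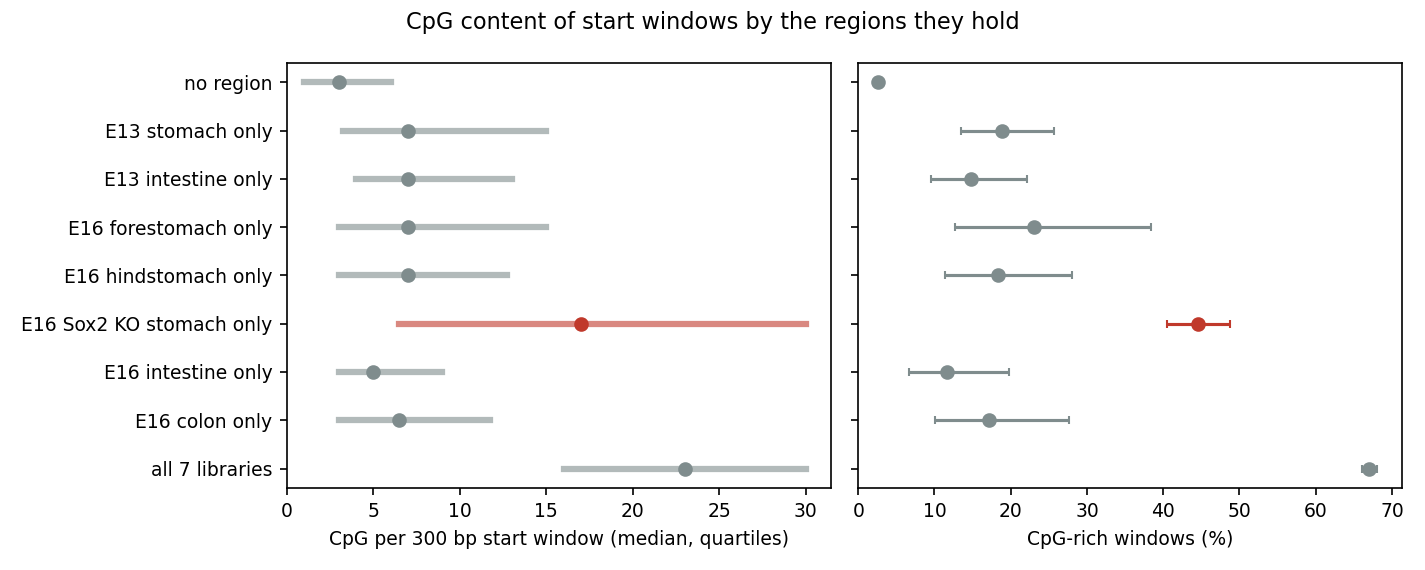
CpG dinucleotides per 300 bp start window (points, median; bars, quartiles) and share of CpG-rich windows (points, with 95% Wilson intervals), by the regions the windows hold. Windows with a KO-only region (red) have a median of 17 CpG and 44.6% are CpG-rich, above the 6 other library-only sets and below windows open in all 7 libraries.

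A KO-only region at a start can be the flank of a start that is open in other libraries too, so starts with no region of another list within 1 kb were taken apart. There were 221 such genes for KO, with 233 windows, of which 78 (33.5%, 27.7 to 39.8) were CpG-rich. That interval takes in the 38.1% of all windows, so these isolated starts were not shown to be richer than start windows in general. The same count was 7 of 45 windows in colon (15.6%), 3 of 25 in hindstomach (12.0%), and 0 of 48 in E13 intestine, 0 of 54 in E13 stomach, 0 of 47 in E16 intestine and 0 of 12 in forestomach. A count of 0 allows a share of up to 3 windows over those counted, which is 5.56% in E13 stomach, 6.25% in E13 intestine, 6.38% in E16 intestine and 25% in forestomach. The Wilson upper limits for the same counts are 6.64%, 7.41%, 7.56% and 24.2%. The 78 windows belong to 70 genes.

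Some of those 70 genes are described here; they were picked after the list was seen, so they do not show what the 70 have in common. The list held genes of general function, such as Actg1, a cytoplasmic actin, Slc4a2, an anion exchanger, Hcn2, an ion channel, and Loxl4, a lysyl oxidase, beside regulators of embryonic patterning. Prrx2, a homeobox gene of limb and face mesenchyme, had a KO-only region of 445 bp over its start (chr2:30845307-30845752), 13447 bp from the nearest peak of another library. Lhx2, a LIM homeobox gene of forebrain and eye, had one of 362 bp (chr2:38339212-38339574), 7938 bp from any other. Barx1 is a homeobox gene of the stomach mesenchyme that is needed for stomach specification. Its region of 174 bp (chr13:48662838-48663012) stood in a window with 50 CpG and was 2697 bp from the next peak. Olig2, a factor of oligodendrocyte and motor neuron precursors, had one of 121 bp (chr16:91225308-91225429) 9484 bp away from other peaks. Gata2, a blood and endothelial GATA factor, had one of 140 bp (chr6:88193886-88194026), and Emx2, a forebrain and urogenital homeobox gene, one of 156 bp (chr19:59458467-59458623). Tbx1 of the pharyngeal arches (111 bp) and Lhx1 (86 bp) were on the same list, as were Rspo1, an enhancer of Wnt signalling (206 bp), and Gdf7, a BMP ligand (189 bp). The list also held Otp and Dmbx1, homeobox genes of the brain, Gad1, which makes the transmitter GABA, Elavl3, a neuronal RNA-binding protein, and Foxl2 of the ovary.

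Gene families were then counted by symbol, again chosen after the start genes were seen, beside the 2.96% of all genes. Of 15 Wnt genes with a start window, 7 had a KO-only region there: Wnt1, Wnt3, Wnt3a, Wnt4, Wnt5b, Wnt7a and Wnt11. Regions of one other library stood at 1 Wnt start in E13 stomach and at 0 in the others. Over all genes the share was 0.863% in E13 stomach and 0.220% to 0.689% in the others, so counts of 0 are near it. Wnt11 had 304 bp over its start (chr7:98834875-98835179) in a window with 45 CpG. Wnt3a had 155 bp (chr11:59290994-59291149) and also 45 CpG, and Wnt3 had 143 bp (chr11:103773962-103774105) with 24. These 3 starts had no region of another list within 1 kb; the nearest peaks were 1737 bp, 2572 bp and 7588 bp away. At Wnt1, Wnt4 and Wnt7a a peak of another library lay 317 bp, 633 bp and 324 bp from the region. At Wnt5b it lay 4 bp away, and the window, with 7 CpG, was not CpG-rich. Near all Wnt genes, 55 of 141 KO regions (39.0%, 31.3 to 47.2) were KO-only, against 27.2% of those near all genes, in a family chosen for its starts.

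In the other families counted, LIM homeobox genes had 3 of 7 (Lhx1, Lhx2 and Lhx4), T-box genes 3 of 10 (Tbx1, Tbx4 and Tbx21), Nkx genes 3 of 11 (Nkx2-5, Nkx2-9 and Nkx6-1), and forkhead genes 4 of 28 (Foxa2, Foxd3, Foxf2 and Foxl2). Pax genes had 1 of 7, Pou genes 1 of 11, Klf genes 1 of 13, and Irx genes 0 of 3. Potassium channel genes had 9 of 57. The count was 2 of 22 for Hox genes, 10 of 290 for solute carriers, 9 of 331 for zinc finger genes of the Zfp series, 0 of 13 for Sox genes and 0 of 944 for olfactory receptors. None of the Lhx, T-box, Nkx and forkhead starts held a region found only in one of the other 6 libraries. Over all genes these libraries did so at 0.220% to 0.863%, so counts of 0 in families of this size are near that share.

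Of 18 short motifs searched on both strands of the start windows, the share of all windows lay outside the interval of KO-only windows for 4: those of KLF and SP, ETS, GATA and NFI factors. This describes the letters only, without adjustment for the number searched. CCCGCCC, bound by KLF and SP factors, was in 45.9% (41.8 to 50.1) of windows with a KO-only region, 34.2% of all windows and 52.5% of windows open in all 7 libraries. CCGGAAG, bound by ETS factors, was in 6.22% (4.48 to 8.56), against 11.7% of all windows and 22.1% of those open in all 7. Within the CpG-rich windows the shares for CCCGCCC were 66.4% (60.3 to 72.0) in KO-only and 61.6% in all windows, which the interval takes in. Those for CCGGAAG were 6.56% (4.08 to 10.4) and 20.1%. In windows that were not CpG-rich, CCCGCCC was in 29.4% (24.5 to 34.7) against 17.3%. Of such windows, those open in all 7 libraries held it in 35.1% and those with no region in 6.23%. It was not the only motif above all windows there. The E-box motif CAGCTG was in 22.8% (18.4 to 27.8) against 17.4%, and the CTCF motif in 1.98% (0.911 to 4.25) against 0.607%. CCGGAAG was in 5.94% (3.79 to 9.19) of windows that were not CpG-rich, against 6.49%. Its lower share against all windows was thus seen in the CpG-rich windows only. Against windows open in all 7 libraries it was lower in both kinds, at 17.4% of those not CpG-rich and 24.4% of the CpG-rich. The SOX motif AACAATG was in 2.56% (1.53 to 4.25) against 3.22% of all windows, and ACAAAG, also of SOX factors, in 14.6% (11.9 to 17.8) against 16.8%. AGATAAG, of GATA factors, was in 1.28% (0.621 to 2.62) against 2.63%, just outside the interval. In windows that were not CpG-rich it was in 2.31% (1.12 to 4.69) against 3.68%, inside the interval. The palindromic NFI motif was in 8 windows, 1.46% (0.743 to 2.86) against 0.309%.

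KO-only regions were spread over many genes. The nearest protein-coding gene within 100 kb was taken for each region, which placed 25481 KO-only regions, 27.2% of the 93720 KO regions so placed. At least 1 lay near 9865 of 21631 genes (45.6%) and at least 3 near 3178 (14.7%). The genes with most were long, with a median length of 800 kb for the first 10 against 17.3 kb for all genes. Sox5, a SOX gene of cartilage and neuronal development, had 31 among 72 KO regions. Wwox had 26 of 45, Rad51b 25 of 70, Arid1b 24 of 70, Pde4d 24 of 72, Dab1 23 of 52, Fhit 23 of 53, Ptprm 23 of 46, Nav2 22 of 61 and Tiam1 22 of 52. These genes were rich in regions of other single libraries too. Colon had more of its own than KO near Sox5 (40 of 109), Wwox (35 of 74), Pde4d (34 of 80), Dab1 (27 of 62) and Fhit (36 of 79). It had fewer near Rad51b, Arid1b, Ptprm, Nav2 and Tiam1.

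Ranked by share among genes with at least 10 KO regions, another set led, with a median length of 42.4 kb. Elfn2, a synaptic membrane protein gene, had 9 of 10 KO regions found in KO only. Barhl2, a homeobox gene of retina and spinal cord, had 8 of 10, as had Faim2 and Pxdc1. Lbx1, a homeobox gene of migrating muscle precursors and dorsal spinal cord, had 8 of 11. Osr1, a zinc finger gene of intermediate mesoderm and lung and kidney mesenchyme, had 8 of 11, as had Fat4, an atypical cadherin, and Pld5. Tafa2 and Fbxo15 had 10 of 13. At Lbx1, 3 of the 8 lay inside the gene, 9890 bp to 11678 bp from any other peak. At Elfn2, 2 lay 16336 bp and 17237 bp from any other, but not all were isolated. The Elfn2 region chr15:78717031-78717183 abutted a peak of another library, and others lay 304 bp and 660 bp from one. Barhl2 was rich in regions of other libraries too, with 14 in colon and 3 to 8 in the other five.

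The gene lists gave shares on both sides of that of all genes, 27.2%. The list of 19 SOX genes had 101 KO-only among 251 KO regions (40.2%, 34.4 to 46.4), and 17 of its members had at least 1. Sox5 held 31 of the 101 and Sox6 15 of 46 KO regions, while Sox9, a progenitor factor, had 10 of 17, and Sox1, a neural SOX gene, 8 of 12. Of 23 mesenchyme genes 20 had at least 1, with 70 of 176 regions (39.8%, 32.8 to 47.1). Zeb2, a zinc finger repressor of epithelial genes, had 11 of 18, Twist2 8 of 17, Foxf1, a Hedgehog target of gut mesenchyme, 5 of 9, and the collagen genes Col1a1 and Col6a3 5 of 9 and 5 of 10. The neural crest and enteric neuron list had 36 of 99 (36.4%, 27.6 to 46.2), of which Gfra1, a co-receptor for GDNF, gave 13. Stress and immediate early genes had 24 of 142 (16.9%, 11.6 to 23.9). Their share was below all genes in each other library too, for example 22.6% against 39.7% in colon. The SOX share was above all genes in E13 intestine (25.4% against 24.97%), E13 stomach (29.3% against 23.6%), colon (41.1%) and hindstomach (16.2% against 14.8%). It was below them in forestomach and E16 intestine. The neural share was above all genes in E13 intestine (32.3%) and E13 stomach (26.8%), and below them in the other E16 libraries. Without adjustment for the 20 lists, and counting each region separately, the SOX, mesenchyme, neural and stress intervals left out 27.2%. Those of the other 16 lists did not. For the SOX and mesenchyme lists, the all-gene share was also left out under each of 4 alternatives, drawn from the same data. The neural interval took in the all-gene share under 3 of them: with gene bodies extended by 10 kb (34.3%, 24.2 to 46.0, against 26.1%), away from gene ends (40.3%, 29.7 to 51.8, against 31.1%) and over 1 kb from other lists (26.7%, 18.5 to 36.9, against 18.6%). The stress interval took it in away from gene ends (22.9%, 15.9 to 31.8, against 31.1%) and with the widest peaks (14.8%, 9.44 to 22.4, against 22.2%). Some lists left out the all-gene share under an alternative only. With the widest peaks these were Wnt and progenitor genes (32.0%, 25.8 to 38.8) and liver, lung and pancreas genes (34.9%, 24.3 to 47.2). With extended gene bodies they were intestinal transcription factors (15.5%, 8.88 to 25.7) and housekeeping genes (8.89%, 3.51 to 20.7). Housekeeping genes also did so over 1 kb from other lists (7.84%, 3.09 to 18.5, against 18.6%).

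**Figure D4:**
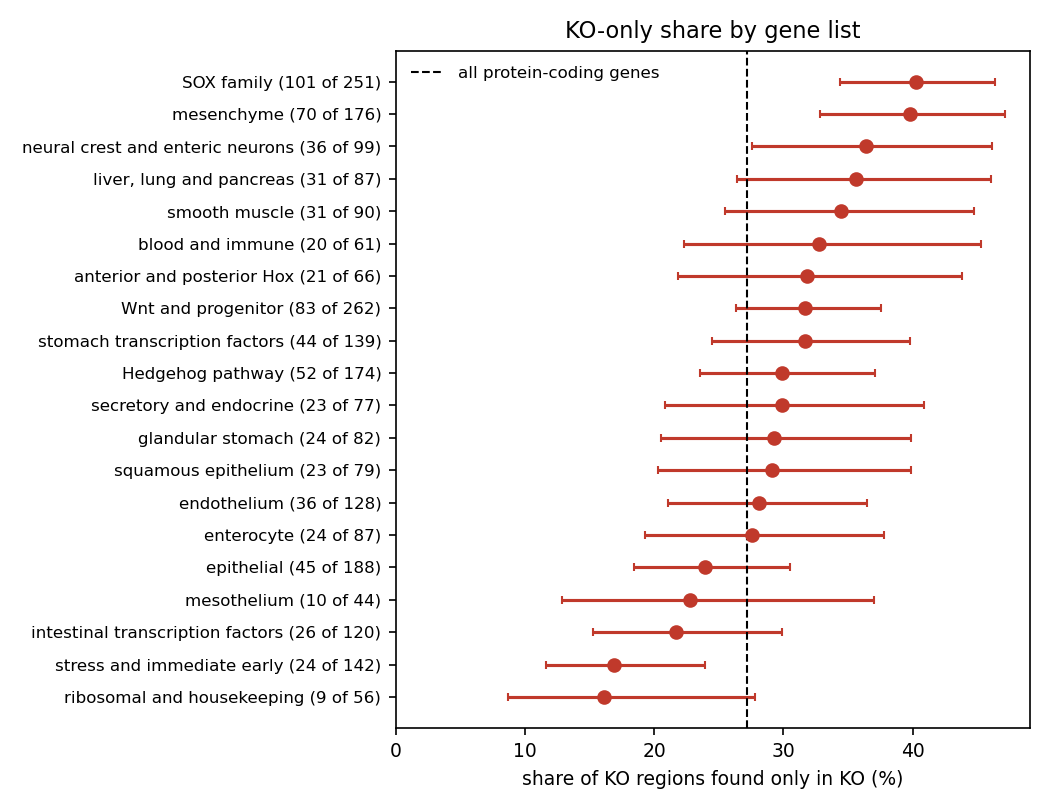
Share of the KO regions near each list's genes that were found only in KO, in percent, with 95% Wilson intervals and the counts beside each list name; the dashed line is the share over all protein-coding genes. SOX family and mesenchyme lie highest, at 40.2% and 39.8%, and the stress and the housekeeping lists lowest, at 16.9% and 16.1%.

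The lists of epithelial identity lay on both sides of 27.2%, with intervals that took it in. Epithelial genes had 45 of 188 (23.9%, 18.4 to 30.5), with 9 of 27 near both Grhl2, an epithelial barrier factor, and Foxa2, an endodermal forkhead factor, and 1 of 15 near Cdh1, the gene of E-cadherin. The epithelial list was below all genes in each other library too, for example at 8.18% against 24.97% in E13 intestine and 21.6% against 39.7% in colon. Intestinal transcription factors had 26 of 120 (21.7%, 15.2 to 29.9), with Gata6 at 6 of 14 and Elf3 and Nr1h4 among those at 0. Stomach transcription factors had 44 of 139 (31.7%, 24.5 to 39.8), led by Irx3 with 9 of 13 and Gata4 with 7 of 20. Enterocyte genes were at 27.6%, glandular stomach genes at 29.3% and squamous genes at 29.1%. Wnt pathway and progenitor genes had 83 of 262 (31.7%), among them Smoc2 with 11 of 22, Tcf7l1 with 8 of 27 and Nkd1 with 7 of 12. Hedgehog pathway genes had 52 of 174 (29.9%), with Gli3, a transcriptional effector, at 10 of 27 and Ptch1, the receptor, at 8 of 15.

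Markers of other cell types that the KO sample could hold were counted over whole lists. Their KO-only shares were 39.8% for mesenchyme, 36.4% for neural crest and enteric neurons, 34.4% for smooth muscle, 32.8% for blood and immune cells, 28.1% for endothelium and 22.7% for mesothelium. In the mesenchyme list Vim, Col3a1 and Nkx3-2 had no KO-only region, and in blood and immune cells 12 of 17 members had none, including Ptprc, Hbb-bt and Spi1; Runx1 held 12 of that list's 20. In smooth muscle 8 of 12 members had at least 1, among them Mylk with 10 of 22, Des with 3 of 6 and Tagln with 2 of 2, while Acta2, Cnn1, Kcnmb1 and Lmod1 had none. The mesenchyme share was above the all-gene share in each other library too: 33.0% against 24.97% in E13 intestine, 28.6% against 23.6% in E13 stomach, 41.6% against 39.7% in colon, 21.6% against 13.01% in forestomach, 15.7% against 14.8% in hindstomach and 24.6% against 21.5% in E16 intestine. The KO library had more regions near epithelial genes as well, 188 against 110 to 160 in the other libraries. The part of other cell types in the KO-only set was not tested.

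At Sox2 itself 5 of the 13 nearby KO regions were KO-only. Other libraries had regions of their own there too: 9 of 18 in colon, 3 of 9 in E13 stomach, 2 of 12 in hindstomach, 2 of 8 in forestomach and 1 of 8 in E16 intestine. E13 intestine had 0 of 3. Of the KO-only regions, one lay 1008 bp before the gene (chr3:34648915-34648986), 315 bp from a peak of another library. The others lay 26464 bp to 87881 bp from the gene, at chr3:34678925-34679111, chr3:34685329-34685400, chr3:34739846-34739980 and chr3:34740342-34740413. At Cdx2 there were 0 among 5 KO regions: all 5 were also found in another library.

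KO-only regions also lay near each other. Another KO-only region was within 10 kb of 37.1% of them, at a density of 11.1 per Mb. For colon-only regions this was 36.4%, at 21.0 per Mb, and for the other five sets 10.2% to 19.7%. The densest stretch of 50 kb, near Gas8, a gene of the ciliary axoneme (chr8:123542257-123592257), held 15 KO-only among 30 KO regions, but colon had 20 regions and E13 stomach 16 there as well. In Man1c1, a Golgi mannosidase gene (chr4:134557756-134607756), all 9 KO regions were KO-only. Colon had 4 regions there, hindstomach 2 and E16 intestine 1, while E13 intestine, E13 stomach and forestomach had none. Stretches with 9 were also found in Tns3, a focal adhesion gene (of 11 KO regions), Msi2, an RNA-binding protein of progenitor cells (of 11), and Srcin1 (of 13). A further one lay beside Pdgfa, an epithelial ligand for mesenchymal PDGF receptors (of 11). By chromosome the KO-only share of KO regions ran from 26.1% (24.4 to 28.0) on X to 30.6% (29.3 to 32.0) on chromosome 12.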

How the data were processed

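ATAC-seq peak lists of 7 libraries were used, 1 per group. Per the submitters' processing notes, cutadapt, Bowtie2 and MACS2 were used on GRCm38/mm10; for versions, thresholds and pooling the sources used here give nothing. Each file the authors deposited has 3 columns with a peak's chromosome, start and end, and thus a unit other than signal, with no height, score or read count. Positions are printed as deposited, since no source says if the first base is 0 or 1.

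Peaks on the 19 autosomes and X were merged where they overlapped by at least 1 bp, and regions with a peak in 1 list only were kept. Each was placed at the closest protein-coding gene of RefSeq (GRCm38.p6), up to 100 kb away. Start windows, 21045 for 17274 genes, came from RefSeq and carry strand. All 335 genes of the 20 lists were found. With 1 library per group no test was run. The method was tested on simulated data.

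Named genes are the 10 with most KO-only regions, the 10 with the highest share among at least 10 KO regions, the 3 per list with most, Sox2, Cdx2, and those at the 10 widest regions, the 10 densest 50 kb stretches and the 10 widest regions over a start; predicted genes are left out and the text prints a part. Genes named at starts, in families and as further list members were picked after their values were seen. Members and lists were chosen with earlier results of these data known. The other lists with their KO-only shares are liver, lung and pancreas (35.6%), Hox (31.8%), and secretory and endocrine genes (29.9%). Alternatives were other merging distances, equal list lengths, leaving out each list, other gene windows and isolated regions. Tables were made in Python 3.11.15 (pandas 2.3.3, numpy 2.4.6, scipy 1.17.1) and plots with matplotlib 3.10.9.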

Additional observations from a re-analysis of the deposited data

Results flagged for a closer look

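Chromosome Y was left out of all comparisons. The KO list had 69 peaks there, of which 17 regions were found in KO only. The other lists had more peaks on Y, from 178 in E13 stomach and 187 in E13 intestine to 1111 in colon, and between 49 and 446 regions of their own.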

How the results depend on the processing

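The number of KO-only regions fell to 18207 when every list was cut to its widest peaks at equal length. It was 24708 with lists thinned at random, 20685 when peaks less than 500 bp apart were merged and 38764 without the E13 stomach list. The share at gene ends was 5.18% with a window of 500 bp, 12.4% with 2 kb and 9.002% for peaks at or above the median width. The highest chromosome exceeded the lowest 1.17 times by share of KO regions, 1.24 times for regions over 1 kb from other lists, and 4.14 times by KO-only regions per Mb. The following alternatives were chosen after seeing the data. Merging at 500 bp lowered the share within 1 kb of a start to 2.45% (other libraries 0.648% to 1.13%) and the CpG-rich share of start windows to 34.5% (others 0% to 15.8%). With the widest peaks at equal length KO-only regions touched the starts of 415 genes and the other sets 31 to 160; with thinned lists 457 and 49 to 216, and the CpG-rich shares were then 44.0% and 10% to 37.7%. Without the E13 stomach list 801 genes were touched. Of 20 lists 15 were above the share of all genes, and 11 to 13 under the alternatives. Lists that fell below were enterocyte and Wnt (gene bodies extended by 10 kb), squamous (regions away from gene ends, regions over 1 kb from other lists, widest peaks), endothelium and Hox (the first and second of these), endocrine (the first) and Hedgehog (the last pair). The cause of these moves was not tested. Base composition and motifs of the regions' central bases were not run, since no genome sequence was used here. No paired analysis was possible because each group is 1 library.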

Other observations

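KO-only regions overlapped the hairpins of 10 of 1005 miRNAs in the RefSeq table, or 3.43 per 10000 regions. All regions overlapped 112 hairpins, also 3.43 per 10000 regions, all KO regions 96, and the regions of each other single library 1 to 3, or 0.181 to 1.77 per 10000. Those on chromosome 12 were Mir432 (chr12:109594946-109595067) and Mir300 (chr12:109724294-109724368), and those on chromosome 7 Mir344h-1 (chr7:61739298-61739385) and Mir344f (chr7:62046247-62046318). The others were Mir149, Mir1955, Mir3093, Mir6392, Mir7045 and Mir8117.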
